A study of Drosophila melanogaster with 34 samples.

Results

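Basement membrane components were followed through the growth of *scrib* mutant wing disc tumors in *Drosophila melanogaster*. The set was fixed by gene symbol and holds 10 genes, *vkg*, *Col4a1*, *LanA*, *LanB1*, *LanB2*, *trol*, *Ndg*, *SPARC*, *Pxn* and *Mp*. Of these, 9 were found among the 17641 symbols with values, and *trol*, which encodes perlecan, was not analysed here. RNA was sequenced from wing imaginal discs, the larval epithelial sacs that form the adult wing and notum, in 34 libraries of 9 groups. Control discs, of genotype *FRT82B* (strain BL2035), were taken at 4 days after egg laying (AEL) in 3 libraries and at 5 days in 4 libraries. Discs mutant for *scrib*, a gene required for apical-basal polarity, carried the *scrib1* allele on a chromosome that also held *FRT82B*. They were taken at 4, 5, 8, 10, 12 and 14 days AEL in 4 libraries each and at 6 days in 3 libraries. The study states that control larvae turn into pupae at 5 days AEL. Tumors of 6 days and later therefore have no control of their own age and were set against control discs of 5 days. Discs of the same age need not be of the same developmental stage, and the part of stage was not tested. The study calls the libraries biological replicates without saying how many larvae each one holds, so p-values measure the spread between these libraries. In whole discs, fewer cells of a type and less RNA per cell cannot be told apart.

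A basement membrane is the thin sheet of matrix under the basal face of an epithelium. Laminin, a trimer of an alpha, a beta and a gamma chain, forms a first network on the cell surface, and collagen IV, a trimer that is crosslinked once outside the cell, forms another one over it. Nidogen and perlecan tie the networks together, and integrins and dystroglycan anchor them to cells. In *Drosophila* larvae much of the collagen IV of the wing disc is made by the fat body and reaches the disc through the hemolymph, hemocytes also express matrix genes, and tumor cells that leave the disc must pass this sheet.

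Depth was alike across libraries, with 18437402 to 26619424 reads on genes. A count of 3 reads, the smallest taken to differ from 0, was worth 0.116 to 0.166 CPM. CPM are counts scaled to 1e6 reads on genes, with a further factor per library from the authors. Wing disc identity genes were present in every group, with 8 genes summing to 1580 to 1770 CPM in tumors of 4 days and 3200 to 3330 CPM in control discs of 5 days, but *nub*, a wing pouch factor, averaged 5.08 CPM in the former against 245 CPM in control discs of 4 days. RNA of other tissues was also present. The summed level of 10 hemocyte markers was 76.5 to 114 CPM in control discs of 4 days, 63.0 to 116 CPM in those of 5 days, 347 to 513 CPM in tumors of 4 days, 155 to 525 CPM in tumors of 5 days and 100 to 231 CPM in later ones, and none of the 10 was at 0 throughout a group. The summed level of 7 fat body markers ran from 108 to 4320 CPM in control discs and from 3.2 to 2790 CPM in tumors, where it was at most 426 CPM in every library of 10 days or more. *Lsp1gamma* was the marker at 0 in all control libraries of 4 days. The glial marker *repo* averaged at most 1.76 CPM in any group, although *moody*, listed with it, averaged 114 to 209 CPM in tumors and 15 to 17.5 CPM in control discs. The summed level of 4 tracheal markers was 1330 to 1770 CPM in control discs and 3540 to 6500 CPM in tumors, although *trh*, the tracheal transcription factor among them, averaged 85.8 and 106 CPM in control discs of 4 and 5 days and 22.9 to 44.1 CPM in tumors. The summed level of 8 gut markers reached 2520 CPM in a control library of 4 days and was at most 2.34 CPM in tumors of 8, 12 and 14 days. Their part in the results was not tested.

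Levels of different genes were compared per kb of exon. *SPARC*, a collagen-binding glycoprotein whose transcript has 1201 exonic bases, stood first in 8 of the 9 groups, at 206.5 ± 11.4 CPM per kb in control discs of 4 days (SD, n = 3) and 182 ± 34.4 in tumors of 14 days (SD, n = 4). In tumors of 14 days it was followed by *LanA* at 94.7, *LanB1* at 93.6, *LanB2* at 63.4, *Col4a1* at 33.8 and *vkg* at 26.3 CPM per kb. *LanA* and *LanB1* overlapped there, as did *Col4a1* and *vkg*, while *LanB2* lay apart from both neighbours. *Pxn* at 8.49, *Mp* at 4.79 and *Ndg* at 0.509 CPM per kb came last, and these 3 did not overlap. Control discs of 5 days had another order, with *LanB2* at 70.6 and *LanB1* at 70.4 CPM per kb above *SPARC* at 59.8, *LanA* at 49.4, *Mp* at 10.2, *Col4a1* at 9.88 and *vkg* at 7.06.

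**Figure D1:**
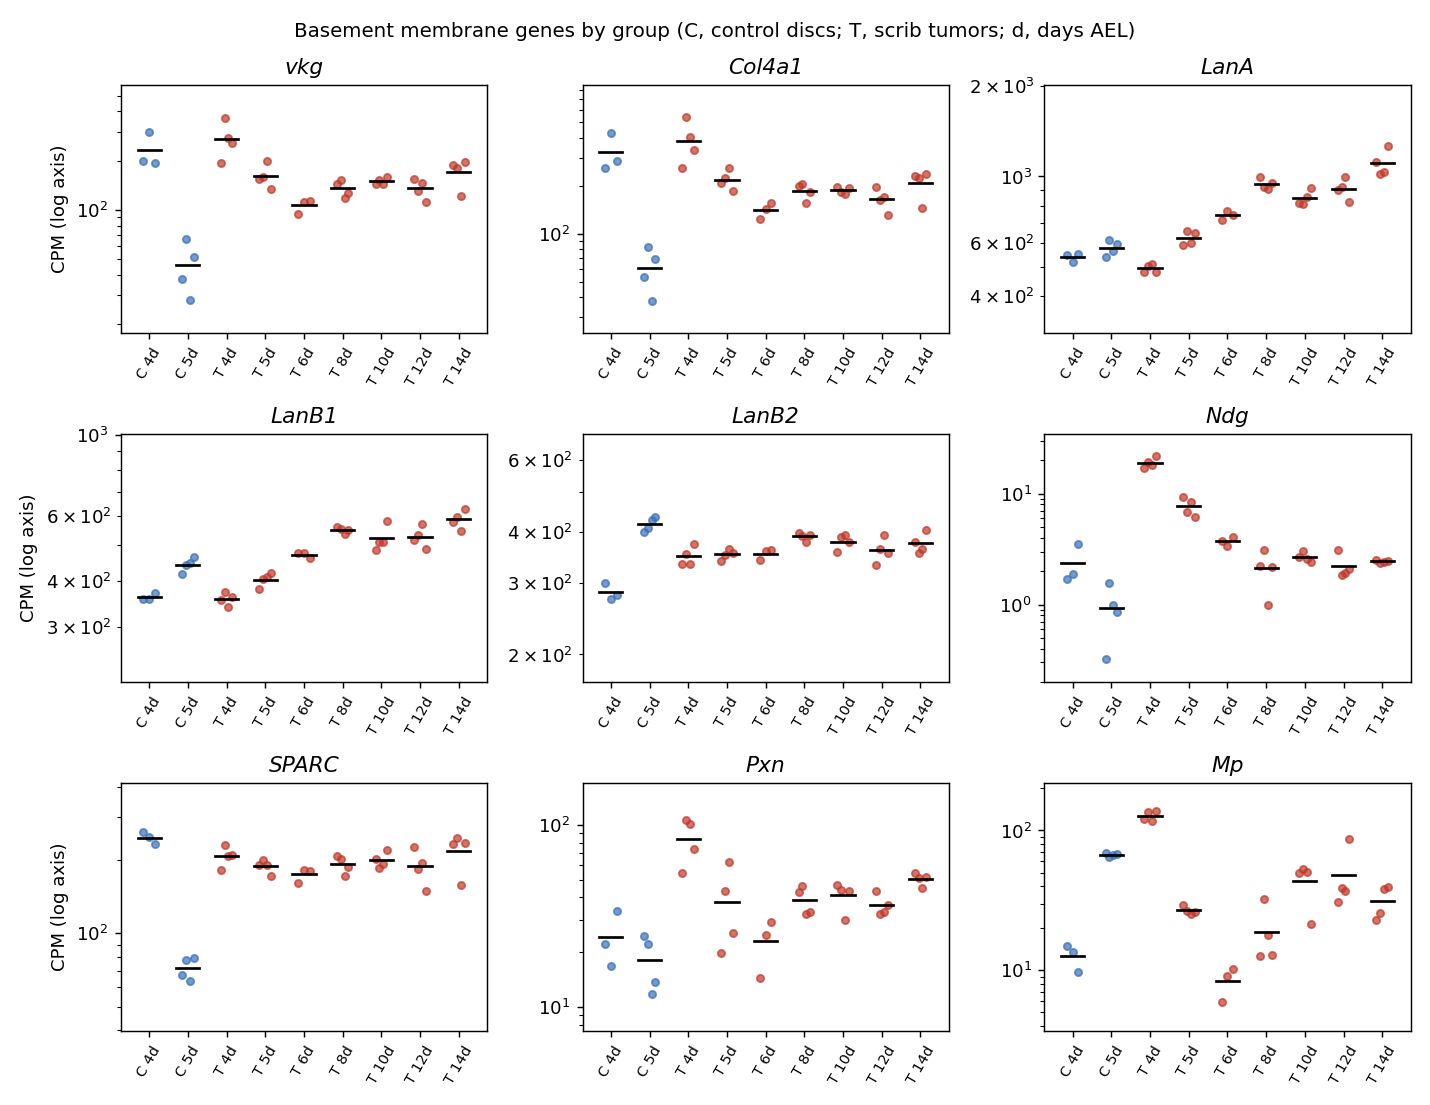
CPM of the 9 basement membrane genes on log axes, with a point for each library and a bar at the group mean (C, control discs; T, *scrib* tumors; d, days AEL). *vkg*, *Col4a1* and *SPARC* dropped further in control discs of 5 days than in tumors of that age, *LanA* and *LanB1* climbed through tumor growth, and *Ndg* and *Mp* were highest in tumors of 4 days.

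The collagen IV chains fell about 5-fold in control discs between 4 and 5 days, and they fell less in tumors over the same day. *Col4a1* (FBgn0000299) and *vkg* (FBgn0016075) encode the alpha1 and alpha2 chains. They lie head to head on chromosome arm 2L of BDGP6, *vkg* on the minus strand at 5012144 to 5028191 and *Col4a1* on the plus strand at 5029609 to 5037279, with 1417 bases between them. *vkg* measured 199, 302 and 194 CPM in the 3 control libraries of 4 days and 37.6, 66.1, 28.1 and 51.8 CPM in the 4 of 5 days. These groups lay far apart, and the fall was 5.05-fold for the means, or -2.35 ± 0.21 on log2(CPM + 1) (SE, adjusted p = 1.3e-10). *Col4a1* measured 259, 432 and 286 CPM and then 53.8, 82.7, 37.9 and 69.3 CPM, a change of -2.42 ± 0.22 (adjusted p = 1.5e-10).

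In tumors of 4 days *vkg* measured 194, 364, 276 and 255 CPM, which overlapped the controls of that age (difference 0.23 ± 0.21, adjusted p = 0.37). In tumors of 5 days it measured 154, 158, 198 and 134 CPM, each above every control disc of 5 days. The difference at 5 days was 1.84 ± 0.20 for *vkg* (3.5-fold, adjusted p = 1.3e-09) and 1.87 ± 0.20 for *Col4a1* (3.59-fold, adjusted p = 1.9e-09). The difference at 5 days exceeded that at 4 days by 1.62 ± 0.29 for *vkg* (adjusted p = 4.3e-05) and by 1.65 ± 0.30 for *Col4a1* (adjusted p = 5.4e-05). Later tumors stayed above control discs of 5 days at each age, by 2.33- to 3.73-fold for *vkg* and 2.32- to 3.43-fold for *Col4a1*, with no overlap. Their means, 107 to 171 CPM for *vkg* and 141 to 209 CPM for *Col4a1*, lay under the 232 and 326 CPM of control discs of 4 days.

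Within the tumors both chains were lower at 6 than at 4 days, and their means were higher again from 8 days on. *vkg* averaged 272 ± 70.2 CPM at 4 days (SD, n = 4), 161 ± 27 at 5 days, 107 ± 10.4 at 6 days (n = 3) and then 135 to 171 CPM from 8 to 14 days. From 4 to 5 days *vkg* changed by -0.73 ± 0.20 (adjusted p = 0.0061) and *Col4a1* by -0.77 ± 0.20 (adjusted p = 0.0054). The next step, to 6 days, left the groups apart for both genes but did not pass (adjusted p = 0.090 and 0.077), though it did with the compared groups alone (0.0073 and 0.0032). The step up from 6 to 8 days also left the groups apart, by 0.33 ± 0.21 for *vkg* (adjusted p = 0.26) and 0.39 ± 0.22 for *Col4a1* (adjusted p = 0.20), and it too passed with the compared groups alone (0.0154 and 0.0103). *Col4a1* passed for a slope over the 7 ages, at -0.053 ± 0.023 log2 units per day (adjusted p = 0.037), and *vkg* did not, at -0.032 ± 0.022 (adjusted p = 0.19), although without the tumors of 14 days its slope of -0.071 passed (adjusted p = 0.025). The *Col4a1* call rested on the youngest tumors: without the tumors of 4 days its slope was 0.0034 (adjusted p = 0.87). It was also lost without any one of the 4 tumor libraries of 4 days, without replicate 3 of 5 days, without replicates 2 or 4 of 12 days and without replicate 3 of 14 days, where the adjusted p reached at most 0.11, with library size alone (0.0587) and with no filter (0.0547). Without the tumors of 14 days the slope was -0.095.

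The chains kept a close ratio. Per exonic base, *Col4a1* stood at 1.48 ± 0.094 times *vkg* in control discs of 4 days (SD, n = 3) and 1.48 ± 0.092 times in tumors of 4 days (SD, n = 4), and in every library the ratio lay between 1.23 and 1.56. It was 1.28 ± 0.026 in tumors of 14 days, below each of the 8 tumor libraries of 4 and 5 days. Across the 34 libraries *Col4a1* was the tested gene most like *vkg* (Pearson r = 0.99 on log2(CPM + 1)), followed by *SPARC* (r = 0.91), and the gene next to *Col4a1* after *vkg* was *Cpr11A*, a cuticle protein gene (r = 0.92). These correlations describe libraries that share ages and genotypes and were not tested.

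Markers of the tissues that make collagen IV moved in part with these values, and their part in the result was not tested. In control discs the 7 fat body markers summed to 657, 4320 and 938 CPM at 4 days and to 844, 1120, 108 and 343 CPM at 5 days. Replicate 2 was the highest in both groups, and it was also the highest in *vkg* and *Col4a1*. In tumors of 4 days, where both chains had their highest means, the sum was 274 to 660 CPM. In tumors of 5 days, where both were lower, it was 863 to 2000 CPM. In the libraries of 10 days or more it was 3.2 to 426 CPM, and *vkg* was between 112 and 196 CPM. The fat body markers had no common course in control discs. *Fbp1* averaged 4.53 CPM at 4 days and 404 CPM at 5 days, and *Lsp1beta* 1240 and 107 CPM. Of the other fat body markers only *Lsp1gamma* also had a higher mean at 5 days. Their sum therefore need not follow the amount of fat body across ages. The hemocyte gene *Hml*, which encodes hemolectin, averaged 14.7 CPM in control discs of 4 days, 3.15 CPM at 5 days, 105 CPM in tumors of 4 days and 39.4 CPM in tumors of 5 days. The other markers did not all share its course in control discs, where 5 of the 10 had a higher mean at 5 than at 4 days (47.0% of all tested genes did), among them *NimC1* (2.47 and 3.32 CPM), *srp* (2.62 and 4.05 CPM) and *crq* (33.1 and 41.7 CPM, without overlap). The library with the most *Hml* was also the highest in *Col4a1* in 7 of the 9 groups and in *vkg* in 6.

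The laminin chains were transcribed in every group, and *LanA* and *LanB1* rose through the life of the tumors. *LanA* (FBgn0002526), the alpha chain, lies on 3L at 6203831 to 6218022. It measured 481, 504, 512 and 482 CPM in tumors of 4 days, 995, 925, 910 and 948 CPM at 8 days and 1119, 1019, 1031 and 1261 CPM at 14 days. Every tumor library of 14 days lay above every library of another group, and the means of 4 and 14 days differed 2.24-fold. The slope was 0.094 ± 0.010 log2 units per day (adjusted p = 2.0e-09).

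*LanB1* (FBgn0261800), the beta chain on 2L at 7811438 to 7820771, averaged 357 ± 14.1 CPM in tumors of 4 days and 588 ± 34.2 CPM in those of 14 days (SD, n = 4 each), 1.65-fold more, with a slope of 0.061 ± 0.0075 (adjusted p = 2.8e-08). Both slopes passed without any single library, without the tumors of 4 days and without those of 14 days. *LanB2* (FBgn0267348), the gamma chain on 3L at 9614914 to 9623980, stayed between 348 and 390 CPM as a tumor group mean. Its slope was 0.0090 ± 0.0044 (adjusted p = 0.063), which passed with the edgeR quasi-likelihood test, DESeq2, scaling by library size alone or log2 of age (adjusted p 0.0077 to 0.0324), and without replicate 4 of 4 days, replicates 1 or 4 of 12 days or replicate 2 of 14 days (0.0181 to 0.047). The size stayed small in each case.

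The chains therefore did not keep one ratio. Per exonic base and within a library, *LanB2* stood at 1.39 ± 0.097 times *LanA* in tumors of 4 days and 0.671 ± 0.028 times in tumors of 14 days (SD, n = 4 each). *LanB1* went from 1.35 ± 0.074 to 0.993 ± 0.071 times *LanA*. In both ratios the lowest library of 4 days lay above the highest of 14 days. In control discs *LanB2* moved the other way, from 1.04 ± 0.039 times *LanA* at 4 days (n = 3) to 1.43 ± 0.079 at 5 days (n = 4). A ratio within a library does not depend on its scaling, but it cannot say which chain changed.

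**Figure D2:**
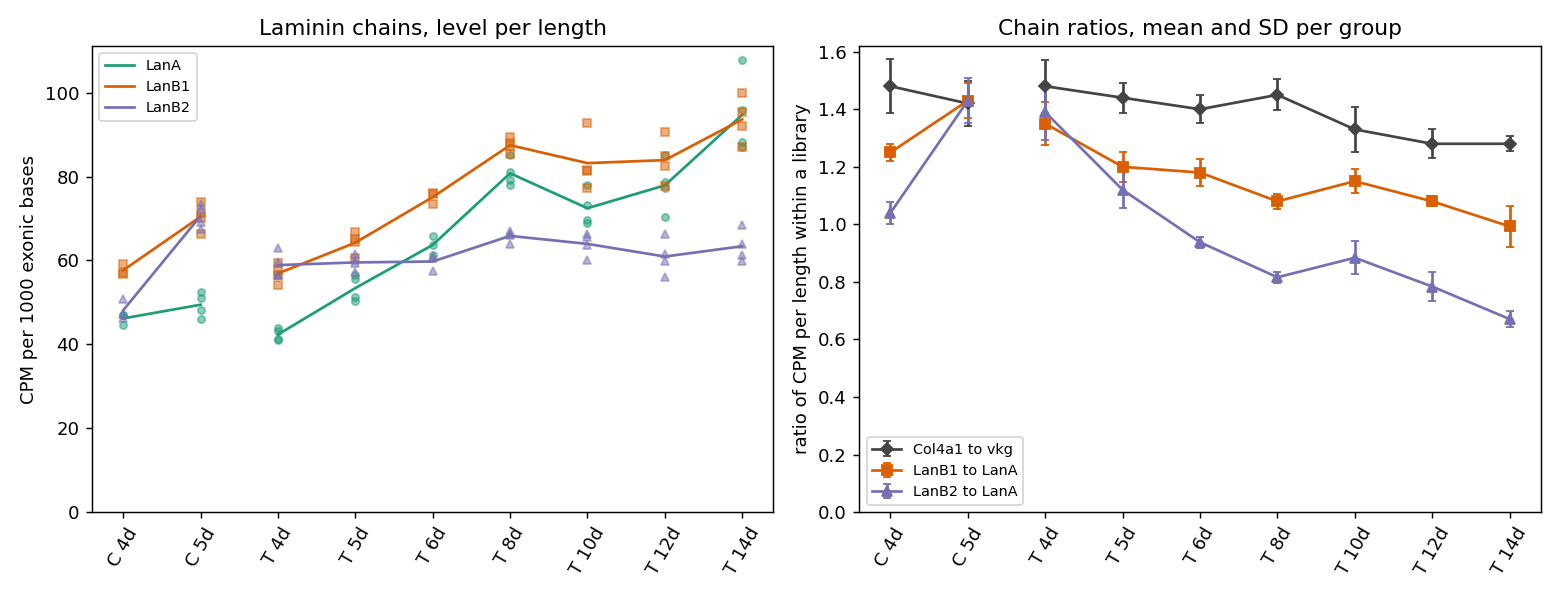
Left, CPM per kb of exon of the laminin chains (points, libraries; lines, group means). Right, ratios per exonic base within a library (mean and SD) for *Col4a1* to *vkg*, *LanB1* to *LanA* and *LanB2* to *LanA*. The ratio *LanB2* to *LanA* went from 1.39 in tumors of 4 days to 0.671 in those of 14 days, and *Col4a1* to *vkg* stayed between 1.28 and 1.48.

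Against control discs the laminin genes differed little at 4 and 5 days. *LanB2* measured 300.0, 274 and 280 CPM in control discs of 4 days and 334, 353, 334 and 372 CPM in tumors, a difference of 0.29 ± 0.05 (adjusted p = 1.3e-05). At 5 days it measured 400, 409, 428 and 434 CPM in control discs and 338, 352, 363 and 355 CPM in tumors, so the groups were again apart but in the other order (-0.25 ± 0.05, adjusted p = 3.6e-05). The change of direction passed as an interaction of -0.54 ± 0.07 (adjusted p = 3.1e-07). Control discs gained *LanB2* from 4 to 5 days (0.55 ± 0.05, 1.47-fold, adjusted p = 2.2e-10), and the same step in tumors did not pass (0.02 ± 0.05, adjusted p = 0.85). With scaling by library size alone the difference at 4 days was 0.17 and still passed.

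*LanB1* was 1.10-fold lower in tumors of 5 days (-0.13 ± 0.05, adjusted p = 0.018), with overlapping groups, and this call was lost without replicate 4 of the control discs (-0.11, adjusted p = 0.070) or replicate 1 of the tumors (-0.11, adjusted p = 0.078). Scaled by library size alone, it was -0.22. *LanA* did not pass at either age (-0.13 ± 0.06, adjusted p = 0.094, and 0.11 ± 0.06, adjusted p = 0.096). At 4 days, where its groups did not overlap, it passed as lower with the compared groups alone (adjusted p = 0.033) and with library size alone (-0.24). The difference between the ages passed in the fit over all groups (0.24 ± 0.09, adjusted p = 0.033), but not with the edgeR test, DESeq2 size factors or no filter, and not without any one of replicates 1 and 3 of the control discs of 4 days, 1 and 3 of those of 5 days, 1 and 4 of the tumors of 4 days and 2 and 4 of those of 5 days (adjusted p up to 0.079).

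From 8 days on *LanA* and *LanB1* lay above control discs of 5 days without overlap, and at 14 days *LanA* was 1.92-fold higher (0.93 ± 0.06, adjusted p = 1.2e-14) and *LanB1* 1.33-fold higher (0.41 ± 0.05, adjusted p = 1.4e-08). *LanB2* was lower in tumors of 6, 10, 12 and 14 days, by 1.10- to 1.18-fold, and at 8 days its -0.10 ± 0.05 did not pass (adjusted p = 0.067). The 8-day difference passed without replicate 1 of the control discs (adjusted p = 0.042), with the edgeR test, DESeq2, DESeq2 size factors, library size alone or the compared groups alone. The genes whose levels ran closest to *LanA* over the 34 libraries were *GstT4*, a glutathione S-transferase gene (r = 0.96), and *LanB1* (r = 0.96), and *LanB1* was followed by the serpin gene *Spn77Ba* (r = 0.95). *LanB2* had *how*, an RNA-binding protein gene (r = 0.91), and *Atpalpha*, a sodium pump subunit gene (r = 0.89).

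*Ndg* (FBgn0026403, 2R, 10313891 to 10322104), which encodes nidogen, was a low transcript that stood out in the youngest tumors. It measured 1.70, 1.89 and 3.52 CPM in control discs of 4 days and 16.9, 19.4, 18.2 and 21.8 CPM in tumors of that age, 8.05-fold higher. At 5 days it measured 0.319, 1.55, 0.991 and 0.863 CPM in control discs and 9.28, 6.78, 8.51 and 6.21 CPM in tumors, 8.26-fold higher. The groups did not overlap at either age, and the differences were 2.61 ± 0.20 (adjusted p = 1.6e-12) and 2.19 ± 0.19 (adjusted p = 8.6e-12) on log2(CPM + 1), a scale that understates changes of low genes. The interaction did not pass (-0.41 ± 0.27, adjusted p = 0.24).

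*Ndg* then fell with age, to 3.74 ± 0.370 CPM at 6 days (SD, n = 3) and 2.12 ± 0.874 CPM at 8 days, and it stayed at 2.12 to 2.68 CPM to 14 days. The slope was -0.21 ± 0.03 (adjusted p = 4.5e-06). Without the tumors of 4 days it was -0.12 and still passed. The step from 6 to 8 days (-0.65 ± 0.20, adjusted p = 0.016) was lost without replicate 3 of 6 days (-0.59, adjusted p = 0.069) or replicate 3 of 8 days (-0.44, adjusted p = 0.084). Tumors of 6 to 14 days were 2.28- to 4.02-fold above control discs of 5 days, with overlap at 8 days. Here the scale mattered: the edgeR test on recovered reads gave 1.96 in place of 1.33 at 6 days and 1.15 in place of 0.69 at 8 days, and -1.31 in place of -0.80 ± 0.20 for the fall in control discs between 4 and 5 days (2.55-fold, adjusted p = 0.0011 and, with edgeR, 0.00094). The gene shares 158 of its exonic bases (3.28%) with *CG34222* on the other strand, and reads were counted with featureCounts' default setting, which does not use strand. *CG32564* (r = 0.96) and the serpin gene *Spn31A* (r = 0.95) had the levels most like it.

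*SPARC* (FBgn0026562, 3R, 26869238 to 26871995) resembled collagen IV in control discs and was nearly constant in tumors. It measured 261, 249 and 234 CPM in control discs of 4 days and 67.3, 77.4, 63.5 and 79.0 CPM at 5 days, a 3.45-fold fall (-1.78 ± 0.12, adjusted p = 4.4e-13). In tumors of 4 days it measured 182, 231, 208 and 210 CPM, which lay just under the controls without passing (-0.26 ± 0.12, adjusted p = 0.069). That difference passed without replicate 2 of the tumors (-0.31, adjusted p = 0.043), with library size alone or with the compared groups alone. In tumors of 5 days it measured 192, 201, 191 and 173 CPM, 2.63-fold above control discs with a wide gap (1.39 ± 0.11, adjusted p = 4.4e-12). The interaction was 1.65 ± 0.17 (adjusted p = 3.6e-09). Tumor group means then lay between 175 and 219 CPM, with no slope past the threshold (0.0086 ± 0.0097 per day, adjusted p = 0.42), and at 14 days *SPARC* was 3.05-fold above control discs of 5 days (adjusted p = 1.9e-13). Its step from 12 to 14 days (0.21 ± 0.11, adjusted p = 0.23) passed without replicate 3 of 14 days (0.36, adjusted p = 0.014). After *Ts*, the thymidylate synthase gene (r = 0.94), *vkg* was the gene most like it.

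*Pxn* (FBgn0011828, 3L, 2601455 to 2630064) encodes peroxidasin, the enzyme that crosslinks collagen IV. It measured 22.1, 16.7 and 33.6 CPM in control discs of 4 days and 54.8, 107, 100.9 and 74.0 CPM in tumors, 3.48-fold higher without overlap (1.77 ± 0.30, adjusted p = 8.9e-06). At 5 days it measured 24.4, 22.2, 11.8 and 13.7 CPM in control discs and 19.7, 43.6, 62.9 and 25.6 CPM in tumors, 2.10-fold higher with overlap (0.96 ± 0.28, adjusted p = 0.0032). The interaction was -0.81 ± 0.41 (adjusted p = 0.12), and -1.09 without replicate 3 of the tumors of 5 days, which passed (adjusted p = 0.0255). From 4 to 5 days the tumors fell 2.22-fold (-1.22 ± 0.28, adjusted p = 0.0017). They reached 22.9 ± 7.69 CPM at 6 days (SD, n = 3) and 50.6 ± 4.11 CPM at 14 days (n = 4), 2.81-fold above control discs of 5 days (adjusted p = 2.0e-05). The slope over the 7 ages was -0.011 ± 0.033 (adjusted p = 0.78), which masked this course: without the tumors of 4 days it was 0.072 (adjusted p = 0.018). The step from 6 to 8 days (0.77 ± 0.30, adjusted p = 0.059) passed without replicate 3 of 6 days (0.97, adjusted p = 0.043) or with the compared groups alone.

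Within most groups *Pxn* followed the hemocyte marker *Hml* library by library. In tumors of 4 days *Hml* measured 59.3, 164, 131 and 65.7 CPM, in the same replicate order as the *Pxn* values above, and in tumors of 5 days 17.1, 47.3, 68.8 and 24.3 CPM. The highest library in *Hml* was the highest in *Pxn* in 8 of the 9 groups and the lowest was the lowest in 6. All 10 hemocyte markers were higher without overlap in tumors than in control discs at 4 days, beside 30% of the tested genes, and 6 of 10 at 5 days, beside 37.3%. At 14 days 10 of 10 had a higher mean than at 12 days, beside 47.4% of the tested genes, and 3 of them were higher without overlap, beside 5.94%. *Pxn* was 1.39-fold higher in mean at 14 than at 12 days without overlap (0.47 ± 0.28, adjusted p = 0.27), which passed with the compared groups alone (adjusted p = 0.032). Between tumors of 5 and 14 days the sum of the markers and *Pxn* parted. The summed level of the 10 markers averaged 323 CPM at 5 days and 136 CPM at 14 days, and *Pxn* averaged 37.9 and 50.6 CPM. The markers were split. *PPO1* (66.9 and 4.56 CPM), *PPO2* (142 and 11.8 CPM), *Hml* (39.4 and 33.6 CPM), *Sr-CI* and *lz* had lower means at 14 days. *NimC1* (10.9 and 12.1 CPM), *eater* (2.02 and 3.45 CPM), *srp* (5.07 and 7.24 CPM), *He* and *crq* had higher ones, as *Pxn* did. The part of hemocytes in the *Pxn* result was not tested. The nearest genes by level were *mthl2*, a methuselah-like receptor gene (r = 0.90), and *NtR* (r = 0.89). *Pxn* shares 1.38% of its exonic bases with *CG16986* and 2.54% with a long noncoding RNA.

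**Figure D3:**
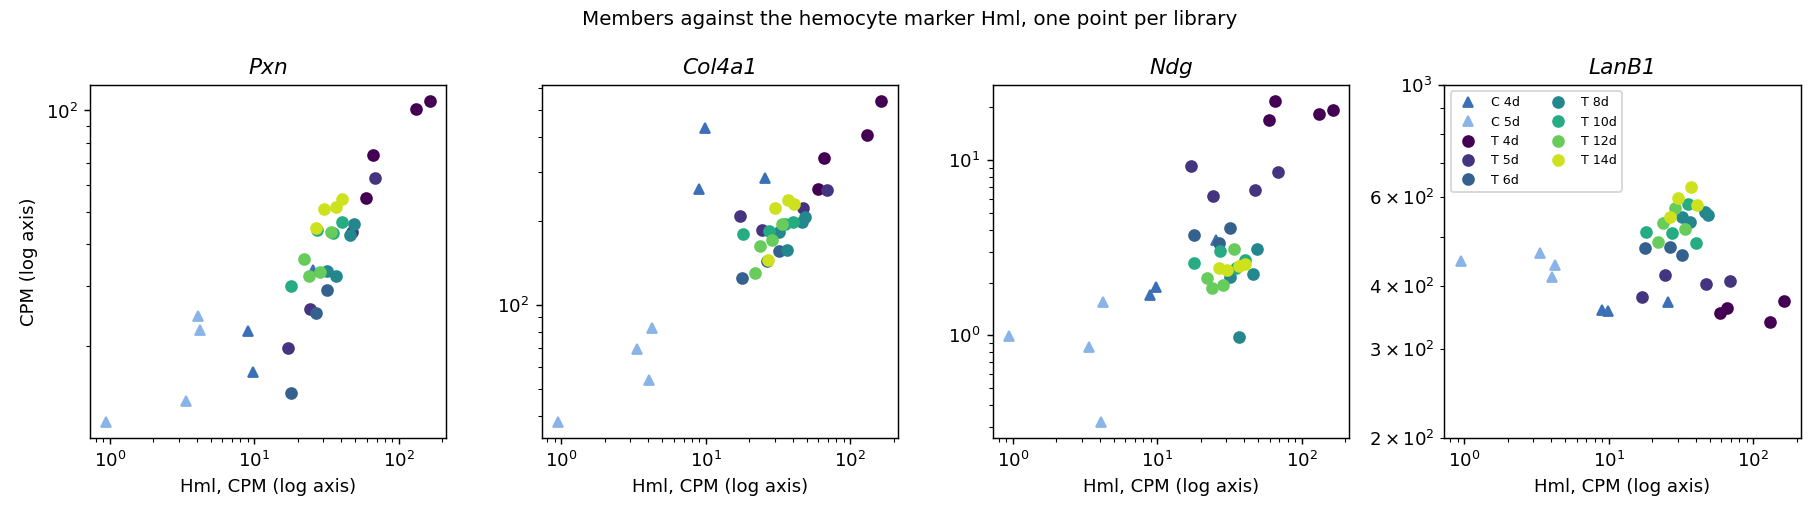
CPM of *Pxn*, *Col4a1*, *Ndg* and *LanB1* against CPM of the hemocyte marker *Hml*, both on log axes, with a point for each of the 34 libraries (triangles, control discs; circles, tumors). *Pxn* ran along *Hml*, from 11.8 CPM in a control library of 5 days to 107 CPM in a tumor library of 4 days. *LanB1* ran from 340 to 628 CPM over all libraries. The 4 tumor libraries of 4 days held 59.3 to 164 CPM of *Hml*. *Pxn* was between 54.8 and 107 CPM in them and *LanB1* between 340 and 373 CPM.

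*Mp* (FBgn0260660, 3L, 6998843 to 7053499) encodes multiplexin, the fly relative of collagens XV and XVIII, and its group means ran from 8.42 to 128 CPM. In control discs it rose from 14.8, 13.5 and 9.77 CPM at 4 days to 69.2, 64.2, 66.7 and 68.1 CPM at 5 days, 5.29-fold (2.33 ± 0.30, adjusted p = 1.4e-07). Tumors did the reverse, with 120, 136, 117 and 138 CPM at 4 days and 29.5, 26.7, 25.2 and 26.1 CPM at 5 days (-2.21 ± 0.28, adjusted p = 8.2e-07). *Mp* was therefore 10.1-fold higher in tumors than in control discs at 4 days (3.25 ± 0.30, adjusted p = 1.2e-10) and 2.5-fold lower at 5 days (-1.29 ± 0.28, adjusted p = 1.6e-04), with no overlap at either age and an interaction of -4.54 ± 0.41 (adjusted p = 4.0e-10).

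The fall in tumors went on to 5.87, 9.12 and 10.3 CPM at 6 days, 15.2-fold under 4 days. *Mp* then came back to 12.5, 32.3, 17.8 and 12.9 CPM at 8 days, 50.0, 53.2, 50.8 and 21.2 CPM at 10 days, 30.8, 39.0, 37.0 and 86.9 CPM at 12 days and 22.7, 25.5, 37.9 and 39.6 CPM at 14 days. The steps from 5 to 6 days (-1.59 ± 0.30, adjusted p = 6.5e-04) and from 8 to 10 days (1.19 ± 0.28, adjusted p = 0.0025) passed without any single library. The step from 6 to 8 days (1.01 ± 0.30, adjusted p = 0.013) was lost without replicate 1 of 6 days (0.80, adjusted p = 0.10) or replicate 2 of 8 days (0.73, adjusted p = 0.076). The straight slope did not describe this course (-0.028 ± 0.061, adjusted p = 0.68), and without the tumors of 4 days it was 0.14 (adjusted p = 0.013).

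Replicate 4 stood apart at 10 days (low) and at 12 days (high) for *Mp*. At 10 days *Mp* was below control discs of 5 days (-0.69 ± 0.28, adjusted p = 0.032), but without replicate 4 of the tumors the difference was -0.38 (adjusted p = 0.22). The call was also lost without replicates 1, 3 or 4 of the control discs (adjusted p at most 0.059), with DESeq2 and with no filter. At 12 days it did not pass (-0.58 ± 0.28, adjusted p = 0.066), but without replicate 4 it was -0.90 (adjusted p = 0.0035), and with library size alone -0.65 (adjusted p = 0.040). The summed level of 5 markers of adult muscle precursors, which lie on the disc's basal side, was 177 to 199 CPM in control discs of 4 days, 207 to 231 CPM at 5 days, 143 to 170 CPM in tumors of 4 days and 144 to 151 CPM in tumors of 5 days. Of the 5, *Him* averaged 8.08 and 4.55 CPM and *zfh1* 36.5 and 28.0 CPM in tumors of 4 and 5 days, both without overlap. *twi* averaged 33.0 and 30.4 CPM and *Mef2* 49.6 and 54.4 CPM there, both with overlap, and the sum of all 5 averaged 155 and 149 CPM. The 5 markers thus did not share one direction. Their part in the *Mp* result was not tested. *Nlg1*, a neuroligin gene (r = 0.83), and *scf* (r = 0.82) had the levels most like *Mp*, and 1.89% of its exonic bases are shared with an antisense RNA.

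**Figure D4:**
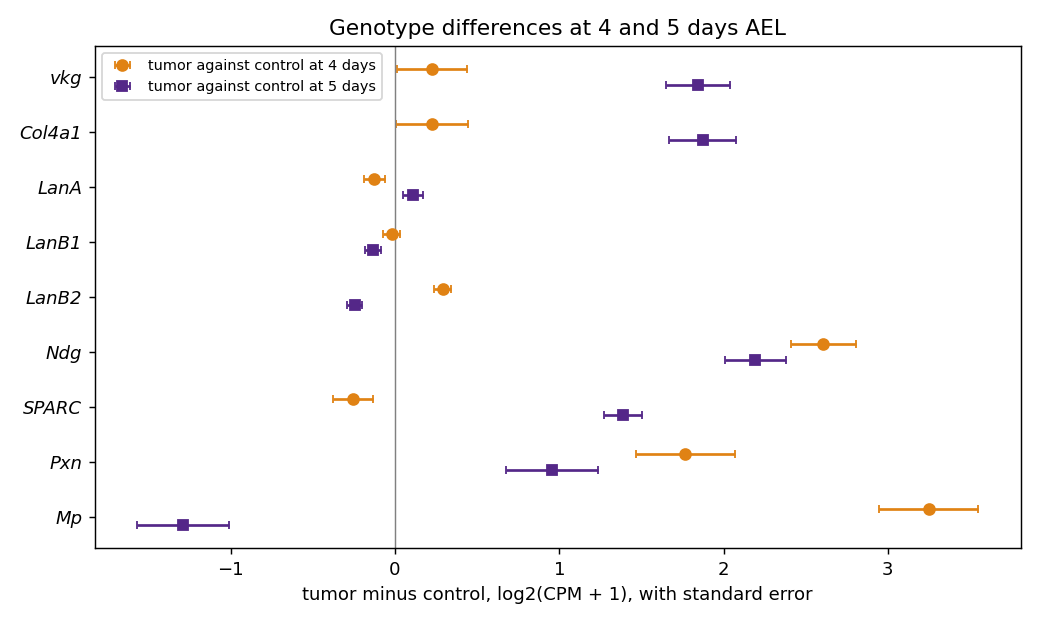
Difference between *scrib* tumors and control discs in log2(CPM + 1) at 4 days (circles) and 5 days (squares) for the 9 genes, with the standard error from the fit over all groups. *vkg*, *Col4a1* and *SPARC* lay near 0 at 4 days and at 1.84, 1.87 and 1.39 at 5 days, and *Mp* went from 3.25 to -1.29.

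Counted over the genes, 4 of the 9 were higher in tumors at 4 days (*LanB2*, *Ndg*, *Pxn* and *Mp*), beside 32.4% of the 9637 tested genes, and 0 were lower, beside 28.6%. The edgeR test and DESeq2 also called 0 lower. An unadjusted p under 0.05 was reached by 5 of the 9, the 4 higher genes and *SPARC*. At 5 days 5 were higher (*vkg*, *Col4a1*, *Ndg*, *SPARC* and *Pxn*), beside 39.0% of all genes, and 3 lower (*LanB1*, *LanB2* and *Mp*), beside 32.5%. The median difference of the 9 was 0.23 at 4 days and 0.96 at 5 days, against 0.035 and 0.063 for all genes. Scaled by library size alone, which shifted the median of all genes by -0.11 at 4 days, *LanA*, *LanB1* and *SPARC* passed as lower at that age, which made 7 calls. The compared groups alone added *LanA* and *SPARC*, which made 6. For the interaction of genotype and age, 6 of the 9 passed, against 38.7% of all genes.

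In control discs between 4 and 5 days 3 genes rose (*LanB1*, *LanB2* and *Mp*), beside 26.6% of all genes, and 4 fell (*vkg*, *Col4a1*, *Ndg* and *SPARC*), beside 27.2%. In tumors over the same day 2 rose (*LanA* and *LanB1*), beside 12.2%, and 5 fell (*vkg*, *Col4a1*, *Ndg*, *Pxn* and *Mp*), beside 11.7%.

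Later steps called fewer of the 9. From 5 to 6 days 4 passed against 8.45% of all genes, and *LanA* among them (0.25 ± 0.06, adjusted p = 0.011) was lost without replicate 2 of 6 days (0.23, adjusted p = 0.069). From 6 to 8 days 5 passed against 26.4%. *LanB2* among them (0.14 ± 0.05, adjusted p = 0.041) was lost without any one of the libraries of 6 days or replicates 1, 2 or 4 of 8 days (adjusted p up to 0.18) and with no filter, and the count fell to 3 without replicate 1 of 6 days or replicate 2 of 8 days. From 8 to 10 days 1 passed, *Mp*, against 23.6%, and 2 did without replicate 4 of 10 days, when *LanA* also passed (-0.19, adjusted p = 0.0255). From 10 to 12 days limma called 0 of the 9, against 5.59% of all genes, as did the edgeR test and DESeq2, and 0 had an unadjusted p under 0.05. From 12 to 14 days 2 rose, *LanA* (0.28 ± 0.06, adjusted p = 0.0016) and *LanB1* (0.16 ± 0.05, adjusted p = 0.027), against 16.4% of all genes. The *LanB1* call was lost without replicates 1 or 4 of 12 days or 2 or 4 of 14 days (adjusted p 0.054 to 0.13), and with the compared groups alone neither passed (adjusted p = 0.076 for *LanA* and 0.165 for *LanB1*).

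Over the 27 tumors 2 of the 9 had rising slopes (*LanA* and *LanB1*), beside 36.4% of the 9408 tested genes, and 2 falling ones (*Ndg* and *Col4a1*), beside 40.8%. The share of the 9 with a slope was thus not above that of all genes. Without the tumors of 4 days, the slopes of *LanA*, *LanB1*, *Pxn* and *Mp* passed as rising and that of *Ndg* as falling. The share of all genes was not counted for that setting, so these calls cannot be set against it.

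Set against control discs of 5 days, which all these comparisons share, most of the 9 were higher at each later age. At 6 days 5 were higher and 2 lower, beside 32.9% and 29.0% of all genes. At 8 days 7 were higher and 1 lower, beside 33.1% and 29.6%. At 10 days the counts were 7 and 2, beside 33.1% and 32.2%, at 12 days 7 and 1, beside 34% and 33.6%, and at 14 days 7 and 2, beside 35.6% and 36.1%. The median difference of the 9 lay between 0.37 and 0.97 at these ages, against 0.0020 to 0.043 for all genes. The 7 higher genes at 14 days were *vkg*, *Col4a1*, *LanA*, *LanB1*, *Ndg*, *SPARC* and *Pxn*, and the lower ones were *LanB2* and *Mp* (-1.11 ± 0.28, adjusted p = 7.9e-04). Control discs of 5 days held the lowest mean of any group for *vkg*, *Col4a1*, *Ndg*, *SPARC* and *Pxn*. Tumors of 6 days and later were not tested against control discs of 4 days. Beside these, their means were lower for *vkg* (107 to 171 against 232 CPM) and *Col4a1* (141 to 209 against 326). *SPARC* was also lower (175 to 219 against 248). *Ndg* (2.12 to 3.74 against 2.37) and *Pxn* (22.9 to 50.6 against 24.1) lay on both sides, and *LanA* and *LanB1* were higher. *LanB2*, lower against control discs of 5 days, was higher beside those of 4 days (353.5 to 389.6 against 284.6). *Mp* lay on both sides (8.42 to 48.4 against 12.7), under the control mean at 6 days and above it from 8 days on.

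Among 8 other basal matrix genes, limma called 6 as higher in tumors of 4 days, with a median difference of 1.38 against 0.035 for all genes (32.4% of which were called higher). At 5 days 5 were higher and 2 lower, beside 39.0% and 32.5% of all genes. With age in tumors 1 rose and 4 fell, beside 36.4% and 40.8%. *Tsp*, the thrombospondin gene, rose from 123 CPM in tumors of 4 days, with a dip to 85.5 CPM at 5 days, to 344 CPM in those of 14 days (slope 0.22 ± 0.02, adjusted p = 9.6e-10), and *prc*, the collagen-like pericardin gene of the heart, fell from 7.28 CPM to 0.0123 CPM over the same ages, the latter under 3 reads (slope -0.22 ± 0.04, adjusted p = 1.1e-05). *wb*, another laminin alpha chain gene, was among those that fell (-0.15 ± 0.02, adjusted p = 1.2e-06), the reverse of *LanA*. It was named after its values were seen.

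For the modification and export of collagen IV 11 genes were listed. Tumors of 4 days had 5 of them higher and 1 lower, beside 32.4% and 28.6% of all genes, and tumors of 5 days 4 and 4, beside 39.0% and 32.5%. Over the tumors 4 rose and 3 fell, beside 36.4% and 40.8%, with a median slope of 0.0080 per day. Both ends of the range were lysyl oxidase genes, whose family crosslinks collagen. *lox* averaged 0.730 CPM in tumors of 4 days and 1.49 CPM in those of 14 days (0.051 ± 0.014, adjusted p = 0.0019), and *lox2* fell from 53.7 CPM to 4.94 CPM (-0.32 ± 0.04, adjusted p = 2.2e-07). *lox2* averaged 0.240 and 0.0563 CPM in control discs of 4 and 5 days, the latter under 3 reads.

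Matrix proteases and their inhibitor made a list of 5 genes. Limma called 4 of them as higher in tumors of 4 days, with a median difference of 1.91, beside 32.4% of all genes, and 3 as higher and 2 as lower in tumors of 5 days, beside 39.0% and 32.5%. Over the tumors 4 were tested, of which 1 rose and 3 fell, beside 36.4% and 40.8% of all genes. *Timp*, the metalloproteinase inhibitor, averaged 5.59 CPM in tumors of 4 days and 70.9 CPM in those of 14 days (0.32 ± 0.04, adjusted p = 2.1e-08), and *Mmp1*, a metalloproteinase that cleaves basement membrane, fell from 1120 CPM to 334 CPM (-0.17 ± 0.01, adjusted p = 4.6e-13). At 14 days *Mmp1* was still above its 120 CPM in control discs of 5 days.

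The list of basement membrane receptors held 11 genes. Tumors of 4 days had 6 of them higher and 2 lower, beside 32.4% and 28.6% of all genes, and tumors of 5 days 5 and 4, beside 39.0% and 32.5%. Over the tumors 7 rose and 1 fell, beside 36.4% and 40.8%, with a median slope of 0.050 per day against -0.0040 for all genes. *Ddr*, the fly gene of the discoidin domain receptors, which bind collagen in mammals, averaged 0.209 CPM, near the 3-read level, in tumors of 4 days and 23.5 CPM in those of 14 days (0.47 ± 0.02, adjusted p = 4.1e-17). *Itgbn*, an integrin beta subunit gene, fell from 3.55 CPM to 0.902 CPM (-0.12 ± 0.01, adjusted p = 5.4e-10). The main beta subunit, *mys*, did not pass (-0.0071 ± 0.0043, adjusted p = 0.13), a gene named after its values were seen.

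**Figure D5:**
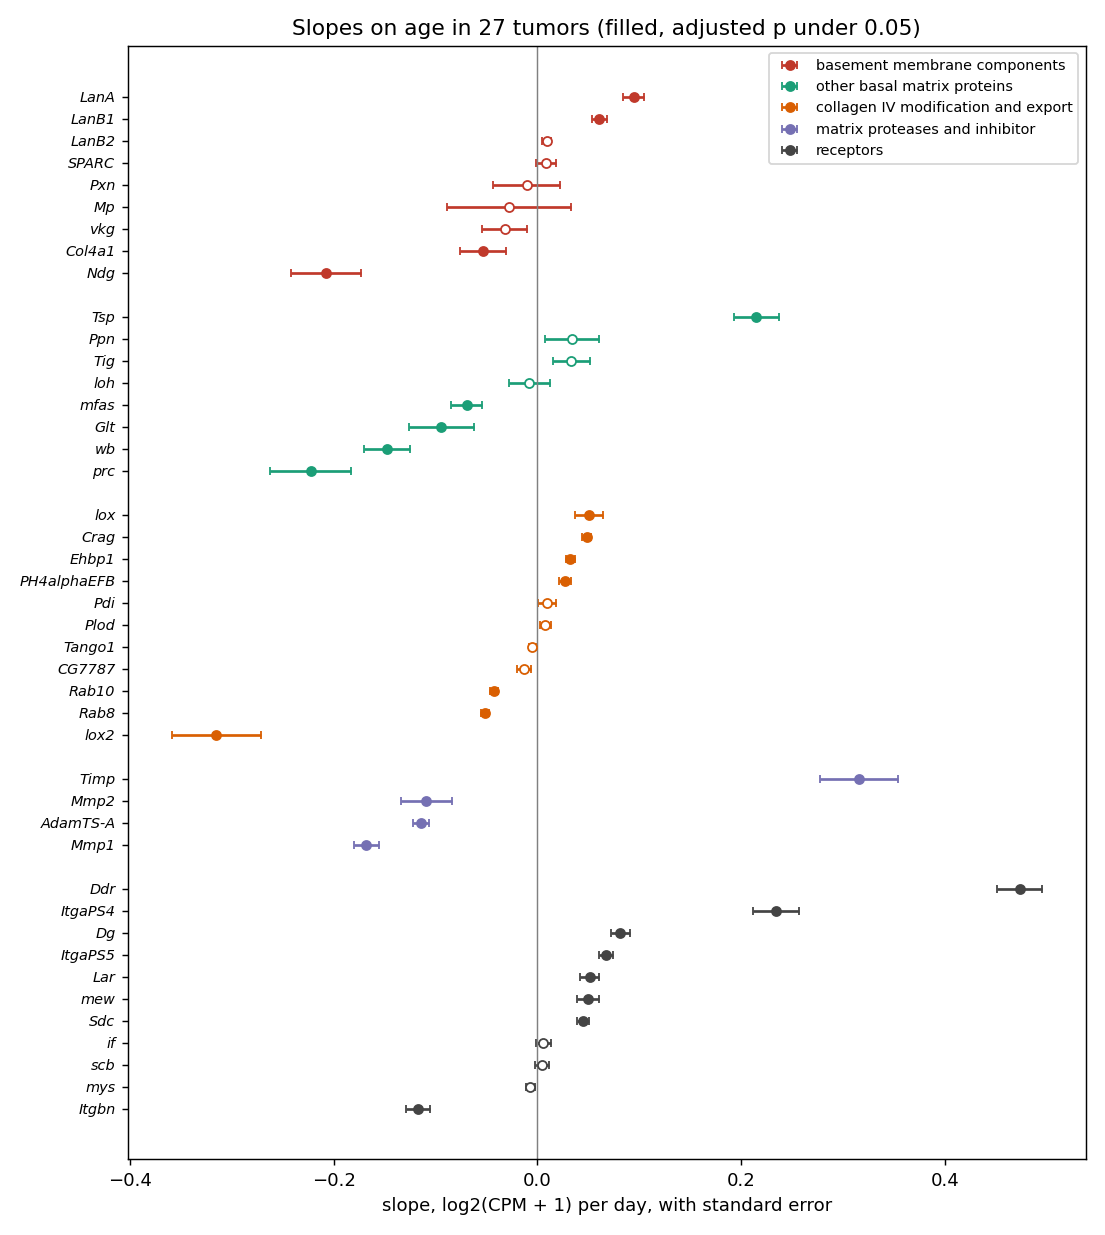
Slope of log2(CPM + 1) per day over the 27 tumors, with its standard error, for the 9 basement membrane components and 4 lists of related genes (filled, adjusted p under 0.05). *LanA* at 0.094 and *LanB1* at 0.061 led the components and *Ndg* at -0.21 came last, while *Ddr* at 0.47 and *Timp* at 0.32 rose most and *lox2* at -0.32 fell most among the genes shown.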

How the data were processed

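Total RNA of wing imaginal discs was sequenced as 150 bp paired-end reads. Per the study's methods, STAR aligned the reads to BDGP6, featureCounts assigned them to genes and edgeR turned the counts into the CPM values that the authors deposited (counts scaled to 1e6 reads). In 20 of the 34 libraries the deposited values sum to over 1e6, since the authors scaled each library (implied factors 0.949 to 1.09), so these columns were read as a signal on the CPM scale. Dividing by the value of 1 read gave whole reads (within 0.01 of a read) for 100% of values in every library, 18437402 to 26619424 per library, so that 3 reads equal 0.116 to 0.166 CPM.

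Genes passing edgeR's filterByExpr by group (9408 over tumors, 9637 over all libraries; all 9 components passed) were tested with limma 3.58.1 in R 4.3.3 (empirical Bayes with an intensity trend) on log2(CPM + 1), either as a slope on age over the 27 tumors or as group differences over all 34 libraries sharing 1 spread. This scale understates changes of low genes. The Benjamini-Hochberg adjustment covered every gene tested, and calls were made at 0.05. The test was first tried on simulated data. Alternatives were edgeR 4.0.16 (quasi-likelihood) and DESeq2 1.42.0 on recovered reads, DESeq2 size factors, library size alone, a pseudocount of 0.1, no filter, the compared groups alone, slopes on log2 age or without the tumors of 4 or 14 days, a replicate block and each library left out. Positions and exon lengths came from Ensembl's BDGP6 annotation, which held 99.5% of the symbols, though its release need not be the one counted against.

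The components and the lists of related genes and markers were chosen with earlier results of these data known. All components were named, with the highest and lowest slopes past the threshold in each related list and the 2 genes with the most similar levels. Shared replicate numbers did not pair the libraries on average. Sequences were not used here.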

Additional observations from a re-analysis of the deposited data

Results flagged for a closer look

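Among 63 sets of 4 libraries (9 genes in 7 groups), 4 held a library whose gap to the others exceeded Dixon's critical share of the group's range, about what chance alone gives at 1 in 20. *Col4a1* was 144 CPM in replicate 3 of the tumors of 14 days against 222 to 238 CPM in the others, and *SPARC* was 157 CPM in the same library against 234 to 248 CPM. The hemocyte marker *Hml* was also lowest there, at 26.7 CPM, and its part was not tested. *Mp* was 21.2 CPM in replicate 4 of the tumors of 10 days against 50.0 to 53.2 CPM, and 86.9 CPM in replicate 4 of those of 12 days against 30.8 to 39.0 CPM.

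The difference between tumors and control discs changed between 4 and 5 days for 6 genes, by the test of the interaction. The difference at 5 days minus that at 4 days was 1.62 for *vkg*, 1.65 for *Col4a1*, 1.65 for *SPARC*, 0.24 for *LanA*, -0.54 for *LanB2* and -4.54 for *Mp*. The *LanA* call was lost in 8 of the 15 fits without a library, and with the edgeR test, DESeq2 size factors or no filter.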

How the results depend on the processing

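Of 1170 values of single genes under the other settings, 1121 kept their direction and side of the threshold, 11 lost a call, 24 gained one and 14 changed sign. With 1 library left out the numbers were 1276 of 1341, with 37, 11 and 17. Shared replicate numbers did not pair the libraries on average (mean correlation of deviations -0.012 over 129 pairs of the same number and 0.0040 over 384 others). Within single comparisons the same-number correlations ran from -0.32 to 0.458. For tumors of 6 days against control discs of 5 days, 3 of 3 libraries were most like their own number (0.09 to 0.147), against 0 to 2 elsewhere. Pairing between particular groups was thus not excluded. The replicate block ended 1 call, *LanB2* from 6 to 8 days (0.13, adjusted p = 0.058), which left 4 calls there.

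Library size alone gave 7 calls at 4 days. The compared groups alone gave 8 calls between 6 and 8 days, 2 between 8 and 10 days (as did DESeq2), and 1 between 12 and 14 days, which was *Pxn* in place of *LanA* and *LanB1*. With 1 library left out the calls numbered 3 to 4 between 6 and 8 days, 1 to 2 for the step to 10 days and 1 to 3 for the step to 14 days. The cause of these changes was not tested.

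Without the tumors of 4 days the slopes of *vkg* (0.024), *Col4a1* (0.0034), *Pxn* (0.072) and *Mp* (0.14) turned positive, and without those of 14 days that of *SPARC* was -0.0042. Other changes of sign were of values near 0 that passed under no setting. *Ndg* had an interaction of 0.0053 with DESeq2 and 0.037 with a pseudocount of 0.1. *LanB2* from 4 to 5 days was -0.0011 with DESeq2 and -0.00066 with its size factors, and from 5 to 6 days -0.0040 with edgeR, -0.0079 with DESeq2, -0.0075 with its size factors and -0.014 with library size alone. *LanB1* in tumors of 6 days against control discs was -0.013 with library size alone.

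With 1 library left out, values that crossed 0 ranged as follows, and none passed. The slope ranged from -0.023 to 0.0092 for *Pxn* and from -0.047 to 0.0011 for *Mp*, and *LanB1* at 4 days from -0.041 to 0.0040. *LanB2* ranged from -0.0033 to 0.049 for the step to 5 days and from -0.014 to 0.033 for the step to 6 days, and *Col4a1* from -0.052 to 0.079 for the step to 10 days. For the step to 12 days the ranges were -0.025 to 0.066 for *LanB1*, -0.196 to 0.0044 for *SPARC* and -0.215 to 0.27 for *Mp*.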
